A study of Mus musculus with 5 samples.

Results

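Ifitm1, Ifitm2 and Ifitm3 encode interferon-induced transmembrane proteins, and these 3 genes of 38130 gene entries were followed through 5 RNA sequencing libraries of mouse regulatory T (Treg) cells. They were chosen by their FPKM values, which in the library labelled Malt1 KO stood well above those of both wild-type libraries, so that contrast is given as a description, with no test. All libraries were made from total RNA of CD4+YFP+ cells sorted from C57BL/6 mice in which Cre and a yellow fluorescent protein are expressed from Foxp3, the gene of the transcription factor that defines Treg cells. Cre-driven deletion is therefore aimed at Foxp3-expressing cells, and whether other cells kept their floxed alleles was not measured. The 4 groups were Foxp3-Cre-YFP wild type at 21 days (WT at 21 days, 1 library), the same genotype at 6 weeks (WT at 6 weeks, 1 library), Foxp3Cre-YFP/malt1fl/fl at 21 days (KO, 1 library) and Foxp3Cre-YFP/malt1fl/C472A at 6 weeks (KI, 2 libraries). KI mice carry 1 floxed allele and 1 C472A allele, and the labels describe the result as loss of Malt1 protease activity in Treg cells. Malt1 is a paracaspase that links antigen receptors to NF-kB. The labels do not say whether libraries came from separate animals, so tests measure how these samples vary among themselves, and that variation may be technical.

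IFITM proteins are small membrane proteins of the cell surface and of endosomes, and they are best known for blocking the fusion of enveloped viruses with host membranes. Their genes are induced by type I interferon and by interferon-gamma through response elements bound by STAT and IRF factors. Ifitm1 protein sits mainly at the cell surface, whereas Ifitm2 and Ifitm3 are found largely in endosomal membranes, and Ifitm3 has also been described as a scaffold of signalling lipids in B cells.

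The genes lie within 1 cluster on chromosome 7 (GRCm38, positions counted from 1). Ifitm2 (ENSMUSG00000060591) spans 140954839 to 140955961 on the minus strand, Ifitm1 (ENSMUSG00000025491) spans 140967221 to 140969825 on the plus strand, and Ifitm3 (ENSMUSG00000025492) spans 141009586 to 141010770 on the minus strand. The GENCODE M21 transcripts of Ifitm2 and Ifitm3 have 2 exons and are 655 and 678 nt long, with coding sequences of 435 and 414 nt. Ifitm1 has 3 transcripts of 2 or 3 exons, up to 882 nt long, with a coding sequence of 321 nt. No other gene entry of the files overlaps any of the 3.

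The sequences around the transcription start are shown because the 3 genes were picked for a shared pattern and are known interferon targets. Each is the RefSeq window of 250 bases before to 50 bases after the start on build GRCm38.p6, written 5′ to 3′ on the strand of the gene. Ifitm1 occupies chr7:140967826-140968125 on the plus strand, Ifitm2 chr7:140955912-140956211 on the minus strand and Ifitm3 chr7:141010695-141010994 on the minus strand. Capitals mark matches to the motifs described after them.
Ifitm1: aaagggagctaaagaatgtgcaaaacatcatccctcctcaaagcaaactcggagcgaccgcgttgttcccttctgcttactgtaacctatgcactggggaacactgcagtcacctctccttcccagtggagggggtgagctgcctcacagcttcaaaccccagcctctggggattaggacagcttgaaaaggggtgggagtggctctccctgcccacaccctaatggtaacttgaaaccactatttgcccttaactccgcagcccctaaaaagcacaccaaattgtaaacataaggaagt
Ifitm2: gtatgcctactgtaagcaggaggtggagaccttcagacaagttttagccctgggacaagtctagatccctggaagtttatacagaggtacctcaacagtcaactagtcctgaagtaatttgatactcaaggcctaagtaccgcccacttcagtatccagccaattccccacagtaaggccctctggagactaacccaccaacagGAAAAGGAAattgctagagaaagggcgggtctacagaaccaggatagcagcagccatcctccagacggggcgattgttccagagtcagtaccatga
Ifitm3: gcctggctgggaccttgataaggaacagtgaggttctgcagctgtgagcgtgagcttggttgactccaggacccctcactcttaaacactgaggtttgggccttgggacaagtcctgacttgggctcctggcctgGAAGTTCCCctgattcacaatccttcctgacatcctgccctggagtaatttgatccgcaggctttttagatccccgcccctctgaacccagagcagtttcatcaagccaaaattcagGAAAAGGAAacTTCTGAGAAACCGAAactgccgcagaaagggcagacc

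The 3 motifs searched on both strands were GAAANNGAA, the core of the interferon-stimulated response element, TTCNNNGAA, the gamma-activated site, and GGGANNTTC, a core of NF-kB sites. They occurred in 8.56%, 8.30% and 3.94% of the 32851 mouse windows of this length. The Ifitm2 window held 1 response element core, GAAAAGGAA, beginning at base -46 from the start. The Ifitm3 window held the same GAAAAGGAA beginning at base 3, counting the start base as 1, and a second core, GAAACCGAA, at base 20. A gamma-activated site, TTCTGAGAA, began at base 14 in Ifitm3 and overlaps the second core, so the capitals run through both. The Ifitm3 window also held 1 NF-kB core on the opposite strand, printed as GAAGTTCCC, at base -115. The Ifitm1 window held none of the 3 motifs. Ifitm1 has 3 start sites in the files and the RefSeq table gives 1 window for it, so the other starts were not searched. Among the relatives, Ifitm6 had a gamma-activated site at base -10, and the windows of Ifitm5, Ifitm7 and Ifitm10 had no match. A match is a string of letters and not a measured site.

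**Figure D1:**
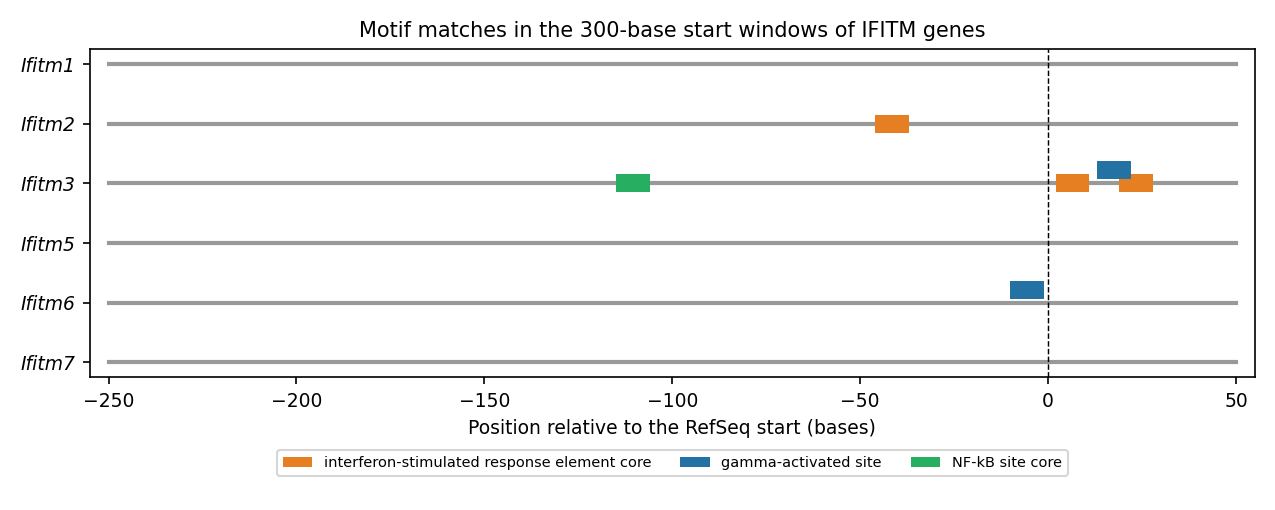
Matches to the 3 motifs in the 300-base RefSeq windows of 6 IFITM genes, with the position in bases from the transcription start (dashed line) on the horizontal axis and 1 row per gene. Ifitm2 has 1 match, before the start, Ifitm3 has 4, of which 3 lie just after the start, Ifitm6 has 1, and Ifitm1, Ifitm5 and Ifitm7 have none.

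Values are FPKM, that is, fragments normalized to transcript length and to all mapped fragments, divided by a factor per library and called scaled FPKM. The lower and upper bounds given with each value are those of the files on the same scale. They describe the error of counting and assigning reads in 1 library and not the spread between animals. Depth, estimated from the bounds, was 26.6 to 30.7 M (mega) fragments in the libraries of WT at 21 days and of KI and 7.38 to 8.33 M in WT at 6 weeks and KO. Each comparison within an age therefore also runs across these depths, and both WT libraries are used beside each other throughout. Malt1 itself had 27 scaled FPKM in WT at 21 days, 15.2 in WT at 6 weeks, 17.6 in KO, and 55.9 and 37.8 in KI replicates 1 and 2, so its level does not set the library labelled KO apart from WT. Foxp3 had 70.7, 39.5, 30.5, 70.1 and 73.6 in the same order, and the Treg markers Cd4, Il2ra and Ctla4 were present in all 5 libraries.

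Ifitm2 was the most abundant of the 3 genes in 4 of the 5 libraries. It had 8.69 scaled FPKM in WT at 21 days (bounds 6.97 to 10.4), 7.52 in WT at 6 weeks (4.77 to 10.3) and 230 in KO (216 to 245). In KI it had 54.8 in replicate 1 (50 to 59.6) and 25.0 in replicate 2 (22 to 28.1). The order was thus KO, KI replicate 1, KI replicate 2 and then the WT libraries, whose bounds overlapped each other and no others. In KO it was higher than 99.5% of all gene entries, against 84.6% and 83.5% in WT at 21 days and 6 weeks and 97.4% and 93.7% in KI. In these bulk samples, a larger share of cells that express a gene and more RNA per cell cannot be told apart.

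Ifitm3 had 1.91 scaled FPKM in WT at 21 days (bounds 1.16 to 2.67), 10.6 in WT at 6 weeks (7.62 to 13.5) and 66.0 in KO (59.0 to 72.9). The KI libraries had 12.8 (10.6 to 14.9) and 4.01 (2.88 to 5.14). KI replicate 1 and WT at 6 weeks overlapped within their bounds, KI replicate 2 lay below both, and WT at 21 days was lowest. The WT libraries differed from each other by 5.52-fold, so the gene had no common WT level.

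Ifitm1 was the least abundant of the 3 in every library. It had 0.211 scaled FPKM in WT at 21 days (bounds 0 to 0.550), 2.02 in WT at 6 weeks (0.366 to 3.68), 33.3 in KO (27.6 to 39.0), and 3.63 (2.51 to 4.75) and 0.952 (0.402 to 1.5) in KI. The values outside KO rest on few reads. By their bounds they are equivalent to about 2 fragments at 21 days and 6 at 6 weeks in WT, and 42 and 12 in KI, against 138 in KO. Below KO, KI replicate 1 overlapped WT at 6 weeks within the bounds, WT at 6 weeks also overlapped KI replicate 2 and WT at 21 days, and KI replicate 2 overlapped WT at 21 days.

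**Figure D2:**
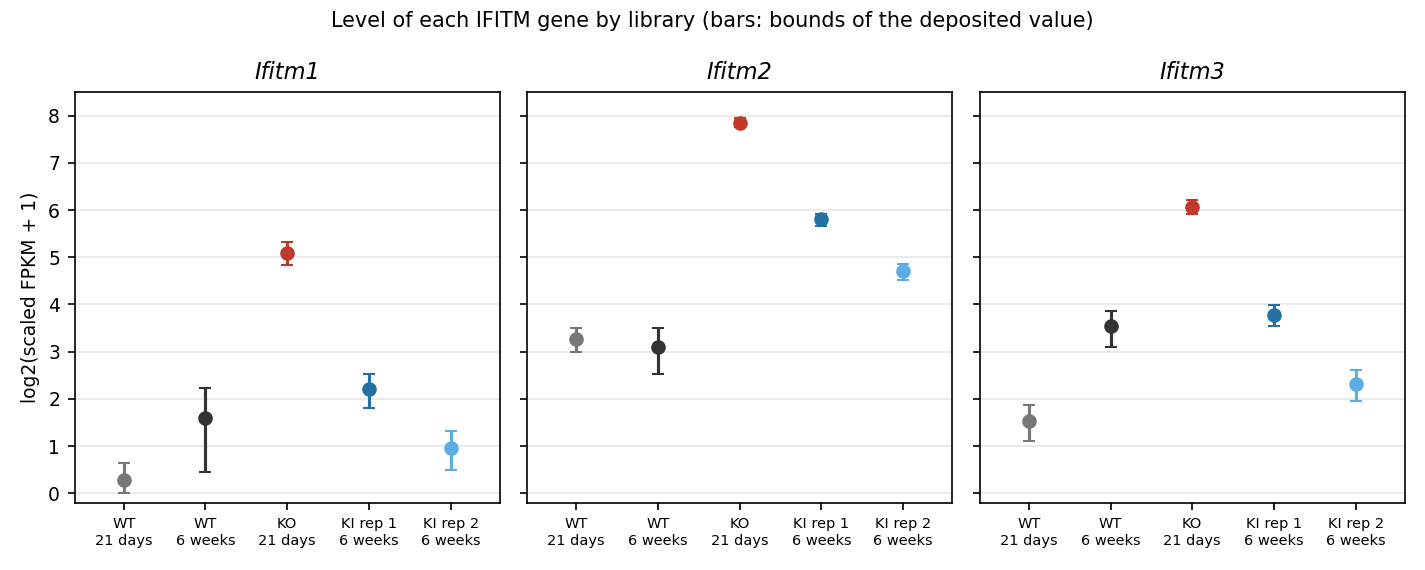
Level of Ifitm1, Ifitm2 and Ifitm3 in each of the 5 libraries as log2(scaled FPKM + 1), with 1 point per library and bars for the lower and upper bounds that the files give. KO is highest in all 3 panels, and the KI libraries lie clear of both WT libraries for Ifitm2 alone.

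The share of each gene in the sum of the 3 showed which gene carried the signal. The sum was 10.8 scaled FPKM in WT at 21 days, 20.1 in WT at 6 weeks, 330 in KO, and 71.2 and 30.0 in KI. Ifitm2 made up 80.4% of it in WT at 21 days, 69.9% in KO and 77.0% and 83.5% in KI, but 37.4% in WT at 6 weeks. There Ifitm3 held 52.5%, against 17.7% in WT at 21 days, 20.0% in KO and 17.9% and 13.4% in KI. Ifitm1 ranged from 1.95% in WT at 21 days to 10.1% in both WT at 6 weeks and KO. WT at 6 weeks was thus the one library in which Ifitm3 exceeded Ifitm2.

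KI against WT of the same age asks whether the genes also differed where 1 Malt1 allele carries C472A. The rule that chose the genes used KO and both WT libraries and not KI, although earlier results of these data were known. Low WT values favoured a gene's choice and are used again in each comparison of KI with WT, so the folds and p-values of those comparisons are not independent of the choice. In KI, Ifitm2 lay above WT at 6 weeks in both libraries, by 7.29-fold in replicate 1 and 3.33-fold in replicate 2, with no overlap of bounds. The KI mean was 39.9 ± 21.0 scaled FPKM (SD, n = 2). Taken as log2(scaled FPKM + 1), a scale that compresses changes of low genes, the difference of KI from WT was 2.16 (SE 0.56). It was larger than that of 99.4% of the 11296 genes tested and missed the threshold in limma with Benjamini-Hochberg adjustment over all of them (adjusted p = 0.451, unadjusted p = 0.0252). Over alternatives with the same control, the adjusted p in limma ranged from 0.150 to 0.472.

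Ifitm1 and Ifitm3 did not differ in 1 direction from WT at 6 weeks across the KI pair. Ifitm1 lay 1.79-fold above WT in KI replicate 1 and 2.13-fold below it in replicate 2, with overlapping bounds both times and a KI mean of 2.29 ± 1.89 (SD, n = 2). Its log2 difference was -0.01 (SE 0.64, adjusted p = 1 in limma). Ifitm3 lay 1.21-fold above WT in replicate 1, with overlapping bounds, and 2.63-fold below it in replicate 2, without overlap. Its KI mean was 8.38 ± 6.19 (SD, n = 2) and its log2 difference -0.48 (SE 0.74, adjusted p = 0.813 in limma). The KI libraries themselves differed by 3.81-fold for Ifitm1, 2.19-fold for Ifitm2 and 3.18-fold for Ifitm3, replicate 1 being higher each time and no bounds overlapping.

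Limma called 0 of the 3 genes against WT at 6 weeks, where 0.00885% of the 11296 genes passed, a single gene, with 1211 at an unadjusted p under 0.05. That fit has 1 residual degree of freedom, and on simulated data of this design it recovered 0% of 16-fold changes, so a gene that it did not call is not shown to be unchanged. By size, Ifitm2 alone of the 3 was past 2-fold above WT at 6 weeks in both KI libraries, as were 3.01% of the genes tested.

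Against WT at 21 days, a library of similar depth and another age, all 3 genes were higher in KI. The log2 differences were 1.31 for Ifitm1 (SE 0.63), 1.98 for Ifitm2 (SE 0.56) and 1.51 for Ifitm3 (SE 0.75), each with an adjusted p = 1 in limma. Limma called 0% of the genes there, 0 in number, with 240 at an unadjusted p under 0.05. Ifitm2 was 6.30-fold and 2.88-fold higher in KI replicates 1 and 2. Ifitm3 was 6.67-fold and 2.09-fold higher, and its bounds did not overlap either. Ifitm1 was 17.2-fold and 4.52-fold higher, the second with overlapping bounds. On the log2 scale with the added 1, Ifitm2 was past 2-fold in both KI libraries and the other two were not, beside 0.398% of the genes tested.

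With both WT libraries as control, Ifitm2 lay 2.07 higher in KI on the log2 scale (SE 0.41, adjusted p = 0.930 in limma), Ifitm1 0.65 (SE 0.63) and Ifitm3 0.52 (SE 0.81). Limma passed 0.00885% of genes there, again 1 gene, and 386 had an unadjusted p under 0.05. The exact permutation test over the 4 libraries gave p = 0.333 (two-sided) for Ifitm2, the smallest that the 6 arrangements allow, and p = 0.667 for each of the others. Ifitm2 was the one member with both KI libraries above both WT libraries, an arrangement found in 16.2% of the genes tested. It was also the one past 2-fold in all 4 pairs, as were 0.283% of genes.

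**Figure D3:**
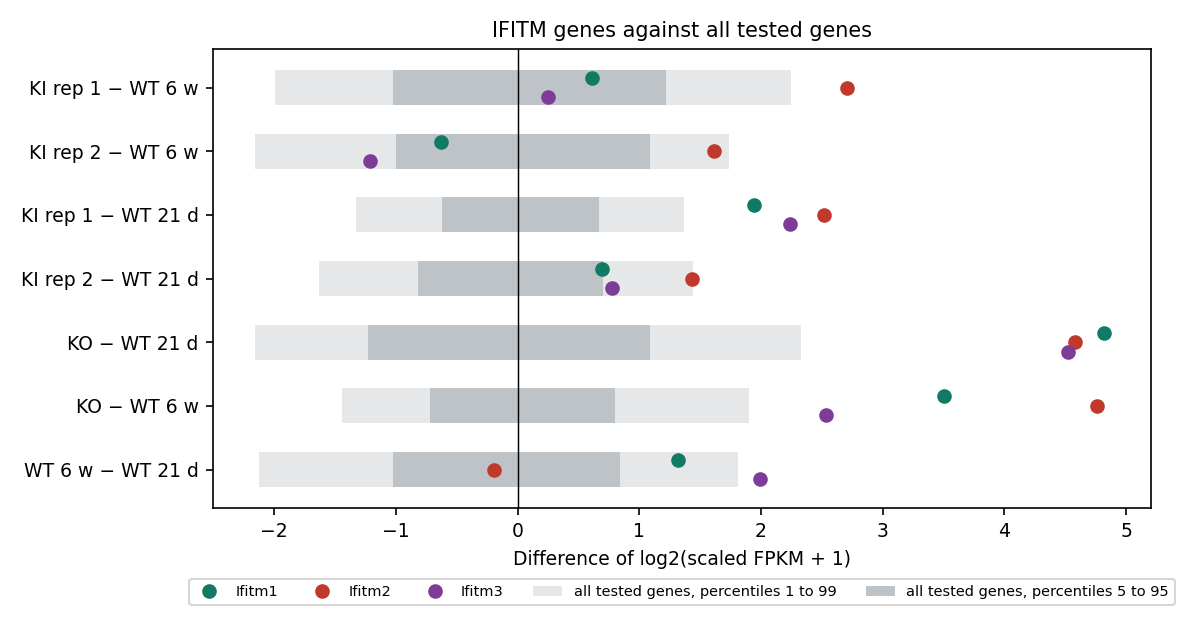
Difference of log2(scaled FPKM + 1) for Ifitm1, Ifitm2 and Ifitm3 (points) in 7 comparisons of single libraries, over bars for the central ranges of all 11296 tested genes. Ifitm2 lies beyond the 5 to 95 percentile range in all 4 KI comparisons, whereas Ifitm1 and Ifitm3 fall on either side of 0 against WT at 6 weeks. The KO comparisons chose the genes.

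The WT libraries differed for Ifitm1 and Ifitm3 more than for Ifitm2. Ifitm3 was 5.52-fold higher at 6 weeks than at 21 days, without overlap of bounds, and Ifitm1 9.60-fold higher, with overlap. Ifitm2 was 1.16-fold lower at 6 weeks, with overlap. On the log2 scale the differences were 1.99, 1.32 and -0.19. By size, 2 of the 3 genes were past 2-fold higher at 6 weeks, beside 3.38% of the genes tested. Both WT libraries took part in the choice of the genes, and a low value at 21 days favoured it. This count is therefore not independent of the choice and cannot be weighed against that share. Each age is 1 library, so this difference has no replicate check, and the libraries also differ in depth (30.7 and 7.38 M fragments at 21 days and 6 weeks) and in markers of other cells, which cannot be told apart from age.

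Markers of other cell types were also high in WT at 6 weeks. The summed scaled FPKM of 11 monocyte, macrophage and neutrophil genes was 138 there, against 31.1 in WT at 21 days, 49.7 in KO and 59.8 and 17.9 in KI. Tyrobp, which encodes a signalling adaptor of myeloid cells, had 50.1 there and 0.116 to 4.39 in the other 4 libraries, and 0 of the 11 genes were at 0. S100a8 and S100a9 were instead highest in KI replicate 1, at 4.73 and 2.31 against 1.83 and 0.230 in WT at 6 weeks. Cebpb had 22.4 in both, and the remaining genes of this list were highest in WT at 6 weeks. The 7 plasmacytoid dendritic cell genes summed to 128 there and to 20.6 to 42.4 in the other libraries, with Siglech at 16.8 and at 0 to 1.24. The 5 erythroid and platelet genes analysed summed to 20.6 there and to 0.752 to 5.41 in the others. Ifitm1 and Ifitm3 moved with these lists between the WT libraries, and the part of such cells in their levels was not tested.

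The lists in which KO stood highest were those of NK cells and innate lymphoid cells. The 7 NK cell genes summed to 20.8 in KO against 2.44 to 11.5 elsewhere, of which Gzma, a granzyme, made up 14.9. Eomes, a transcription factor of NK and cytotoxic T cells, had 2.76 in KO against 0.579 to 1.62 elsewhere, and the NK receptor gene Klrb1c had 1.82 against 0.467 to 0.865. Klrd1 and Ncr1 had 1.17 and 0.194 in KO, within their range in the other libraries. Klre1 and Klra8 were listed at 0 in KO and both KI libraries and reached at most 0.194 in WT. The 7 innate lymphoid genes, several of which T cells also express, summed to 310 in KO and to 163 to 247 elsewhere. Il7r, at 130, and Id2, at 103, were highest in KO, and Rora, at 2.58, was lowest there. B cell genes summed to 9.02 in KO and to 3.19 to 24.4 elsewhere, CD8 T cell genes to 10.1 and to 5.79 to 13.2, and mast cell and basophil genes to 0.135 and to 0.351 to 2.07, with 6 of 8 at 0 in KO. Stromal, endothelial and epithelial genes summed to 34.3 in KO and to 27.9 to 37.9 elsewhere. Treg genes summed to 835 in KO and to 893 to 1215 elsewhere. This sum includes Cd4 and Cd3e, which other T cells also express, at 213 and 224 in KO. Foxp3, Ctla4, Ikzf2 and Ikzf4 were each lowest in KO. Ctla4 had 118 in KO against 148 to 412 elsewhere, and Ikzf2, the Treg factor Helios, had 15.3 against 36.3 to 104. Il2ra, Tnfrsf18 and Lrrc32 lay within their range in the other libraries. The part of the NK, innate lymphoid and Treg lists in the KO values was not tested.

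In the library labelled KO, which was used to choose the genes, Ifitm2 was 26.5-fold above WT at 21 days and 30.7-fold above WT at 6 weeks. Ifitm3 was 34.5-fold and 6.25-fold above them. Ifitm1 was 158-fold and 16.5-fold above them. The WT value at 21 days is equivalent to about 2 fragments with a lower bound of 0, so the bounds set only a lowest ratio of 50.2. The lowest ratios that the bounds allow against either WT library were 7.50 for Ifitm1, 20.7 for Ifitm2 and 4.38 for Ifitm3. On the log2 scale the differences from WT at 21 days were 4.82 for Ifitm1, 4.58 for Ifitm2 and 4.52 for Ifitm3, at ranks 18, 19 and 21 of 11296 genes. Against WT at 6 weeks they were 3.50, 4.76 and 2.53, at ranks 27, 15 and 64.

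The 3 genes were past 2-fold in KO by their choice, and 6.13% of the genes tested were past 2-fold above WT at 21 days, 3.30% above WT at 6 weeks and 2.17% above both. A scaling by which all genes move changes these counts. With FPKM as deposited, 1526 genes were past 2-fold higher and 483 lower in KO than in WT at 21 days, in place of 693 and 920, and with upper quartile scaling 580 and 1101. The members lay from 4.84 to 5.05 with FPKM as deposited, where the median of all genes was 0.35, and from 4.45 to 4.79 with upper quartile scaling, where it was -0.06.

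KO also exceeded both KI libraries. Ifitm2 was 4.21-fold and 9.21-fold higher in KO than in KI replicates 1 and 2, Ifitm3 5.17-fold and 16.5-fold, and Ifitm1 9.17-fold and 35.0-fold, with no overlap of bounds. These values also come from the library that chose the genes. The groups differ in age and depth as well as in genotype, which cannot be told apart here. All 3 genes passed the filter of a mean of 1 scaled FPKM without KO too, with means over the other 4 libraries of 1.70, 24.0 and 7.31.

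Genes known to respond to the same cytokines were set beside the members, in lists drawn up with earlier results of these data known. Of 38 type I interferon-stimulated genes, which mark the response to interferon-alpha and -beta, 35 were tested. In KI, 29 of the 35 lay below WT at 6 weeks and 6 above, with a median log2 difference of -0.57 beside 0.00 for all genes. Limma called 0 of them, and 6 had an unadjusted p under 0.05. The lowest were Ifi204, a DNA sensor of the p200 family, at -2.02 and Ifit3, which binds viral RNA complexes, at -1.71. The highest were Parp14, an ADP-ribosyltransferase gene, at 0.17 and Trim30a, of the TRIM family, at 0.16. The KI libraries differed in this list. In replicate 1, 34 of the 35 genes lay below WT at 6 weeks, with a median of -0.98, and in replicate 2, 25 did, with a median of -0.24. Against WT at 21 days the KI mean was lower for 29 of 35, with a median of -0.35, but this came mostly from replicate 1, with 32 lower and a median of -0.55. Without it, in replicate 2 alone, 19 lay lower and 16 higher, with a median of -0.04. The highest library was WT at 6 weeks for 21 of the 35 genes and KI replicate 2 for 8. The summed level of the list was largest in KI replicate 2, at 1559 scaled FPKM, followed by WT at 6 weeks with 1453. WT at 21 days had 1380, KO 893 and KI replicate 1 847. Of these sums the gene Ifi27l2a alone made up 724, 570, 601, 290 and 269 in the same order. The order of the sums thus leans on 1 gene and does not describe the list as a whole. WT at 6 weeks was also highest for the summed myeloid and plasmacytoid markers, and the part of such cells was not tested.

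In KO the same list also lay mostly below WT. Of the 35 genes, 27 lay below WT at 21 days, with a median of -0.45 beside 0.02 for all genes, and 34 lay below WT at 6 weeks, with a median of -0.67 beside -0.01. Both comparisons use the same KO library. With FPKM as deposited, 22 lay below WT at 21 days and the median was -0.15, beside 0.35 for all genes. Oas1a, an enzyme that activates RNase L, had 1.51 scaled FPKM in KO against 5.79 and 5.17 in WT at 21 days and 6 weeks, and Slfn5, of the Schlafen family, had 9.53 against 26.0 and 22.8. The highest against WT at 21 days were Ifi204 at 1.35 and Zbp1, a sensor of Z-form nucleic acids, at 0.48.

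Of 20 interferon-gamma response genes 17 were tested, and these lay mostly above WT. In KI, 13 of 17 lay above WT at 6 weeks, with a median of 0.52, and 16 of 17 above WT at 21 days, with a median of 0.39, both beside 0.00 for all genes. In replicates 1 and 2 taken alone, 11 and 12 lay above WT at 6 weeks. Limma called 0, and 5 had an unadjusted p under 0.05. Cxcl10, a chemokine, lay at 1.98 and Cd274, the gene of PD-L1, at 1.59, while the immunoproteasome genes Psmb10 and Psmb9 lay at -0.69 and -0.42. In KO, 13 of 17 lay above WT at 21 days, with a median of 0.63, and 16 of 17 above WT at 6 weeks, with a median of 0.31. Iigp1, an immunity-related GTPase, had 39.5 scaled FPKM in KO and 32.5 and 40.4 in KI, against 11.7 and 13.4 in WT. The other gene high in KO by the naming rule was Gbp2 at 1.02, and the lowest were Cxcl10 at -1.35 and Cd274 at -0.91 against WT at 21 days. With FPKM as deposited the counts were 10 of 17 in KI and 13 of 17 in KO, where the medians of all genes were -0.26 and 0.35.

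**Figure D4:**
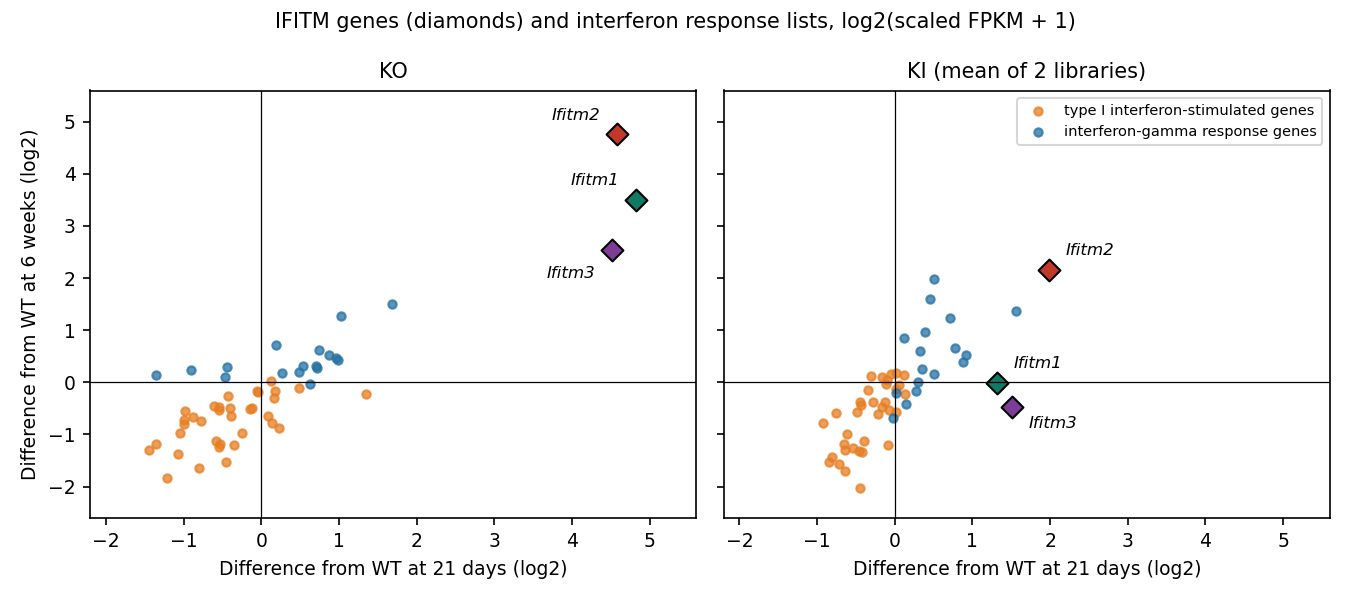
Differences of log2(scaled FPKM + 1) from WT at 21 days (horizontal) and from WT at 6 weeks (vertical) for KO (left) and the mean of the KI libraries (right), with type I interferon-stimulated genes in orange, interferon-gamma response genes in blue and the 3 IFITM genes as diamonds. The axes of a panel share the mutant library. The positions of the IFITM genes in the KO panel are the values that chose them. In KI Ifitm2 lies above every gene of both lists on both axes while Ifitm1 and Ifitm3 lie near 0 or below it on the vertical axis.

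Interferon ligands were scarcely measured in these cells. Of 14 listed ligand genes 12 were analysed here, and only Ifng, the gene of interferon-gamma, passed the filter. Ifng had 15.8 scaled FPKM in WT at 21 days, 8.09 in WT at 6 weeks, 14.9 in KO and 8.20 and 4.80 in KI. Ifnb1, 7 Ifna genes and Ifne were listed at 0 in all 5 libraries. Ligand made by other cells of the tissue was not measured.

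Of 20 receptor and signalling genes of these pathways, 19 were tested, 5 of them listed also as type I interferon-stimulated and 2 as interferon-gamma response genes. In KI, 7 lay above and 12 below WT at 6 weeks, with a median of -0.07. Socs3, a feedback inhibitor of cytokine receptors, lay at 1.41 and the receptor gene Ifngr1 at 1.23, and Irf7 and Usp18, both also type I targets, lay at -1.34 and -1.31. In KO, 6 lay above and 13 below WT at 21 days, with a median of -0.10. The split turned to 14 above with FPKM as deposited, with a median of 0.28 beside 0.35 for all genes. On scaled values, Socs1 lay at 0.96 and Socs3 at 0.78, and the kinase gene Jak1 and the receptor gene Ifnar1 at -0.82 and -0.62. Limma called 0 of the 19 in KI, and 1 had an unadjusted p under 0.05.

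Other virus restriction factors had medians close to that of all genes. Of 16 listed genes 15 were tested, with medians of 0.09 in KI against WT at 6 weeks (9 above, 6 below, 0 called by limma and 1 at an unadjusted p under 0.05) and 0.02 in KO against WT at 21 days (8 above, 7 below). In KI replicate 1, 4 of the 15 lay above WT at 6 weeks, and in replicate 2, 13 did. With FPKM as deposited, 5 lay above WT in the KI mean, where the median of all genes was -0.26. With upper quartile scaling 6 lay above WT in KO, where it was -0.06. The largest differences in KI were Serinc3 at 0.82, Zc3hav1 at 0.50, Bst2, which tethers virions and is also expressed by plasmacytoid dendritic cells, at -1.54, and Ly6e at -0.48. In KO they were Mb21d1, the gene of the DNA sensor cGAS, at 0.84, Tmem173, the gene of STING, at 0.63, Zc3hav1 at -0.94 and Trim25 at -0.83. Of the 15, 0 were past 2-fold in KO against WT at 21 days.

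Genes of IFITM protein partners and modifying enzymes showed no common direction. Of 16 listed genes 12 were tested, with a median of 0.10 in KI (7 above, 5 below, 0 called by limma and 0 at an unadjusted p under 0.05) and -0.25 in KO against WT at 21 days (5 above, 7 below). Both medians changed sign with FPKM as deposited, to -0.19 and 0.13, but the medians of all genes were then -0.26 and 0.35. Cd81, a tetraspanin that binds IFITM proteins, had 30.3 and 28.4 scaled FPKM in WT at 21 days and 6 weeks, 33.0 in KO and 36.3 and 39.5 in KI. Itgb1, an integrin subunit, lay at 0.97 in KI and 0.68 in KO, and Setd7, which methylates IFITM3, at 0.56 and -0.60. Cd9, another tetraspanin, lay at -0.47 in KI and the ubiquitin ligase gene Nedd4l at -0.28. In KO, Abhd16a, which removes palmitate from IFITM proteins, lay at 0.68 and Zdhhc20, a palmitoyltransferase gene, at -0.88.

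The other 4 IFITM family genes in the files were low in every library and were not tested. Ifitm10, outside the cluster on chromosome 7, had 2.96 scaled FPKM in KO against 0.360 and 0.456 in WT and 0.389 and 0.466 in KI. Ifitm6, next to Ifitm3, had 1.41 in KO, 0.976 in WT at 6 weeks, 0.291 in KI replicate 1, and was listed at 0 in the other libraries. Ifitm5, a bone gene next to Ifitm2, had at most 0.529, in KO, and Ifitm7, on chromosome 16, was listed at 0 in all but WT at 21 days, where it had 0.0207. Ifitm5, Ifitm6 and Ifitm10 thus had their highest value in KO, at levels far under those of the members there. No share of all genes highest in KO stands beside this, and at such low levels it is not read as a rise of the family.

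Neighbouring genes were compared along the chromosome. Of 18 genes that start, by lower coordinate, within 100 kb of a member, 11 were tested, 8 of them no members. B4galnt4, a glycosyltransferase gene, was the neighbour furthest above WT, with 12.2 scaled FPKM in KO against 3.16 and 3.26 in WT, and log2 differences of 1.67 and 1.63. Sigirr, an inhibitory receptor of the interleukin 1 family, lay at 1.18 and 0.48 against WT at 21 days and 6 weeks, Pkp3 at 0.91 and 0.39, Sirt3 at 0.87 and 0.14, and Psmd13 at 0.59 and 0.03. Athl1, the nearest tested neighbour, has its lower coordinate 13.4 kb below that of Ifitm2 and lay at 0.41 and 0.09. Ric8 lay at 0.32 and 0.26, and the pseudogene Gm15542 at -1.27 and -0.47. In KI the 8 lay between -0.49 and 0.52 against WT at 6 weeks.

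**Figure D5:**
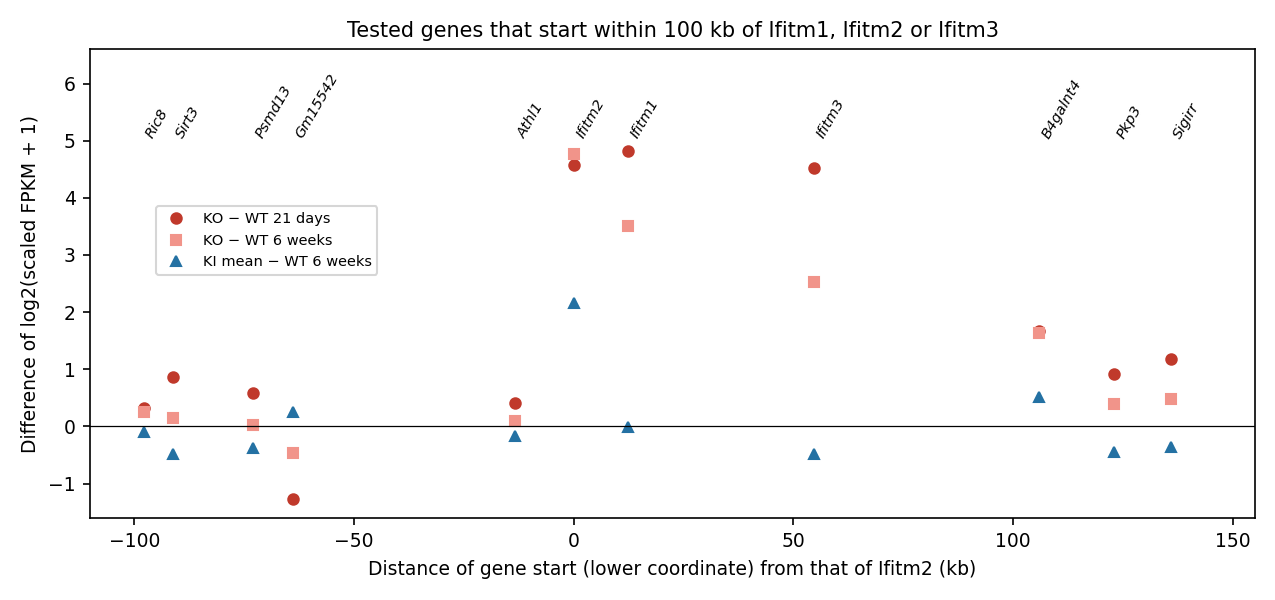
Differences of log2(scaled FPKM + 1) of the 11 tested genes of the region, by the distance in kb of each gene's lower coordinate from that of Ifitm2, for KO against each WT library and the KI mean against WT at 6 weeks. The KO values of the 3 IFITM genes chose them. Among the 8 neighbours B4galnt4 is highest in KO, at 1.67 and 1.63, and in KI the neighbours lie between -0.49 and 0.52.

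Across the 5 libraries Ifitm1 and Ifitm3 had the most similar profiles among the 3. With each gene centred on its mean log2 level, the root mean square difference was 0.32 between Ifitm1 and Ifitm3, 0.80 between Ifitm1 and Ifitm2 and 0.99 between Ifitm2 and Ifitm3. The members lay 0.23 (Ifitm1), 0.41 (Ifitm3) and 0.59 (Ifitm2) from their mean profile. Over the other 9869 protein-coding genes the median was 1.61. This likeness is a description over 5 libraries that the high KO value dominates.

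The 10 nearest genes to the mean profile were Lgals3 (0.53), Il4 (0.59), B930041F14Rik (0.63), Ccl1 (0.64), Gzmb (0.68), Lgals7 (0.68), Gm20418 (0.69), Vdr (0.71), Sytl3 (0.72) and Gm14295 (0.75). Lgals3, the gene of galectin-3, had 3.43 scaled FPKM in WT at 21 days, 11.4 in WT at 6 weeks, 81.9 in KO and 10.2 and 11.4 in KI. Il4, a T helper 2 cytokine, had 0.675, 0.712, 14.5, 2.67 and 2.2 in the same order. Ccl1, a chemokine gene, had 1.29, 2.1, 21.3, 6.11 and 5.51, and Gzmb, which encodes granzyme B, had 7.13, 9.93, 58.7, 18.2 and 15.5. For Il4, B930041F14Rik, Ccl1, Gzmb, Lgals7, Gm20418 and Gm14295 both KI libraries lay between WT and KO, as Ifitm2 did. For Lgals3, Vdr and Sytl3 they did not, and Gm20418 was near 0 outside KO. Among all genes tested, 16.2% had both KI libraries above both WT libraries, a looser criterion that does not ask for KO above KI. The 10 genes were picked for likeness to the members over all 5 libraries, KI included. This order is therefore a description, and that share is no background for it. Vdr, the vitamin D receptor gene, had 7.78 in KO and at most 0.555 elsewhere.

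The members are alike in sequence, which bears on how reads are assigned. Their coding sequences were identical at 78.8% of aligned bases between Ifitm1 and Ifitm2, 81.0% between Ifitm1 and Ifitm3 and 79.6% between Ifitm2 and Ifitm3. The longest shared coding run of Ifitm2 and Ifitm3 is 69 nt long, begins at coding base 130 of Ifitm2 and 133 of Ifitm3, and is printed because a read that falls inside it matches both genes.
Ifitm2 and Ifitm3: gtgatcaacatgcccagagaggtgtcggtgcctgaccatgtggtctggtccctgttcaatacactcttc

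Of the 606 stretches of 50 bases in the Ifitm2 transcript, 294 (48.5%) also occur in the transcript of another gene, but only 20 (3.30%) in Ifitm3. For Ifitm3 the share was 10% and for Ifitm1 6.36% to 10.4% by transcript. Most look-alikes of Ifitm2 are gene models with Gm names. Gm45717 shares 219 of the stretches and is one of 3 look-alikes not analysed here. Of the other look-alikes of the 3 genes, Gm11951 was listed at 0 except for 0.305 scaled FPKM in WT at 21 days, and Gm2840, Gm7676 and Gm8865 were listed at 0 in all libraries. The Ifitm2 value is the most exposed of the 3 to how reads with several matches were counted, and the handling of such reads is not given in the sources used here.

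The transcripts are short, and FPKM of short transcripts depends on the fragment length assumed in each library. Among 276 tested genes whose longest transcript is 500 to 900 nt, a range that holds the members, the median log2 difference was 0.30 for KO against WT at 21 days, 0.06 for KO against WT at 6 weeks, -0.31 for KI against WT at 6 weeks and -0.08 for KI against WT at 21 days. The part of fragment length in the values of the members was not tested.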

How the data were processed

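RNA sequencing was analysed for 5 libraries of sorted mouse Treg cells. The authors used CASAVA, HISAT2 2.1.0 and Cufflinks 2.2.1 with mouse build GRCm38, as listed in the submitters' processing notes without order or settings. The deposited values are FPKM per gene with lower and upper bounds, per the file headers. The annotation release, the strand setting and the kind of reads were not given in the sources used here. If strand was not used, reads of antisense genes are counted together.

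The members and the gene lists were chosen with earlier results of these data known. Each library's FPKM were divided by its median ratio to the geometric mean over 9874 genes that reached 1 FPKM in every library (0.876, 1.15, 1.15, 0.868 and 1.01 for WT at 21 days, WT at 6 weeks, KO and KI replicates 1 and 2). Status was not OK for 1 entry in each KI library, neither a member. Depth was estimated by reading each bound as 2 standard errors from its value. Differences are on log2(scaled FPKM + 1). Limma 3.58.1 with trend, run in R 4.3.3, tested the 11296 genes whose mean scaled FPKM reached 1 (two-sided, Benjamini-Hochberg adjustment, threshold 0.05). The lone WT library is assumed to vary as the KI pair does. KO and WT ages have 1 library each and no test. Counts by size use 2-fold on the same scale. Limma was tested on simulated data with 50 genes each at 2-, 4-, 8- and 16-fold among 11296. It called 0 genes, and the median ratio of estimate to truth was 0.954 to 1.03.

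The named genes were, for each list, the 2 with the largest and the 2 with the smallest difference of KI from WT at 6 weeks and of KO from WT at 21 days, tested genes starting within 100 kb of a member, all IFITM genes, and the 10 protein-coding genes nearest to the members' mean profile. The ligands and markers were taken from their lists by level, and Cd81 was named outside these rules. Start windows are from RefSeq (GRCm38.p6), and transcripts from GENCODE M21, which holds the IDs of 36282 of 38130 entries. File starts count from 0, since 27652 match GENCODE after adding 1, and 1 was added here. Alternatives were other scalings, pseudocounts of 0.1 and 5, other filters, no trend, other controls, a replicate block and leaving out a KI library. Scripts used Python 3.11.15, pandas 2.3.3, numpy 2.4.6 and Biopython 1.88.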

Additional observations from a re-analysis of the deposited data

How the results depend on the processing

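Ifitm2 lay above WT in KI under every alternative run, from 1.61 to 2.71 without 1 KI library, and its adjusted p in limma stayed above the threshold. The direction for Ifitm1 in KI, -0.01 against WT at 6 weeks, changed to 1.31 with WT at 21 days as control, 0.65 with both WT libraries, 0.04 with upper quartile scaling and 0.03 with a pseudocount of 5, and leaving out 1 KI library gave -0.63 to 0.61. For Ifitm3 it changed from -0.48 to 1.51 with WT at 21 days and 0.52 with both WT libraries, and leaving out 1 KI library gave -1.21 to 0.25. Leaving out KI replicate 2 turned both, and with 1 library on each side these values have no test. The cause was not tested.

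With the title number as a replicate block over both WT and both KI libraries, the values were 0.65 for Ifitm1, 2.07 for Ifitm2 (SE 0.31, adjusted p = 0.827 in limma) and 0.52 for Ifitm3. The WT libraries with numbers 1 and 2 differ in age, so the numbers do not pair samples. With the block 1 gene was called and 532 had an unadjusted p under 0.05, against 386 without it.

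Genes called in KI by limma numbered 1, and 0 with WT at 21 days as control, 50 with a pseudocount of 0.1, 15 over protein-coding genes, 0 without a filter (2841 at an unadjusted p under 0.05) and 0 without trend (1165). Of the members, 0 were called under any of these.

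In KO against WT at 21 days, Ifitm1 lay at 6.75 with a pseudocount of 0.1, 2.88 with 5 and 3.50 with WT at 6 weeks as control, where 4.82 is reported. Ifitm2 lay at 4.94 with FPKM as deposited and 4.10 with a pseudocount of 5, and Ifitm3 at 5.04 with 0.1, 3.36 with 5 and 2.53 with WT at 6 weeks. Genes past 2-fold numbered 1613, and 590 with a pseudocount of 5 and 632 with WT at 6 weeks. The list counts under other scalings and controls and in single KI libraries were added after the data were seen. The low depth of WT at 6 weeks limits Ifitm1 most, at the equivalent of about 6 fragments.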
